A study of Mus musculus with 9 samples.

Results

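Mitochondrial DNA encodes core membrane subunits of the respiratory chain, and 10 of its transcripts were measured in hearts of mouse embryos that carried a Ctcf missense allele. The 10 transcripts were taken by name, as listed symbols starting with mt-, and all 10 were found among the 24571 gene symbols used. They are mt-Nd1, mt-Nd2, mt-Nd4 and mt-Nd5 of complex I, mt-Cytb of complex III, mt-Co1, mt-Co2 and mt-Co3 of complex IV, and mt-Atp6 and mt-Atp8 of ATP synthase. A further 5 symbols of the same genome were listed, namely mt-Nd3, mt-Nd4l, mt-Nd6 and the ribosomal RNAs mt-Rnr1 and mt-Rnr2. All 10 were present at 3465 TPM or more in every library, TPM being a length-corrected abundance scaled so that each library has the same sum.

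Hearts were collected at E18.5, shortly before birth, from C57BL/6N mice of 3 genotypes, wild-type, heterozygous (Ctcf +/R567W) and homozygous (Ctcf R567W/R567W), with 3 libraries per genotype. The R567W allele was made by CRISPR/Cas9 editing in the germ line, so each cell type of the heart carried it, and wild-type hearts carried no edited allele. CTCF is a DNA-binding zinc-finger protein that organises chromatin loops in the nucleus. The comparisons asked whether the genotype changed transcript levels, and whether each library is 1 embryo is not given in the sources used here, so a p-value measures the spread between libraries.

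The mitochondrial genome is a small circle that is transcribed into long precursors covering most of a strand. The precursors are cut at the transfer RNAs that lie between the genes, and the released messengers receive short poly-A tails. Complexes I, III and IV pump protons across the inner membrane as electrons pass to oxygen, and ATP synthase uses the gradient to make ATP. Heart muscle is rich in mitochondria, and mitochondrial messengers are among its most abundant polyadenylated RNAs. Parts of the mitochondrial genome have also been copied into the nuclear chromosomes during evolution, and such copies can be near-identical to the original.

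The nuclear copies matter here because they stood in the same table with values of their own. In GENCODE release M21 (GRCm38, the same assembly as mm10), 7 pseudogenes lie side by side on the minus strand of chromosome 1 at chr1:24611535-24616197, a stretch of 4663 bases, and each matches 1 mitochondrial gene. Of these, 5 match members: Gm28661 matches mt-Co2, Gm28437 matches mt-Co3, Gm10925 matches mt-Atp6, Gm29216 matches mt-Co1 and Gm28439 matches mt-Nd4. Gm28438, which matches mt-Nd3, and Gm10222, which matches mt-Nd4l, are copies of genes outside the 10 and were included after their values had been seen. Gm28661 (681 bases), Gm28437 (783 bases), Gm10925 (678 bases) and Gm28439 (876 bases) had 0 differences from the first bases of their mitochondrial genes.

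The first set of sequences shows the place where mt-Atp8 and mt-Atp6 share 43 bases, marked in capitals, because the levels of this pair are compared below. The sequences were read from the GENCODE transcripts, and mt-Atp8 lies at chrM:7766-7969 and mt-Atp6 at chrM:7927-8607, both protein-coding on the plus strand. The bases printed are chrM:7910-7969, chrM:7927-7986 and, for the nuclear copy, chr1:24614592-24614651 on the minus strand.
mt-Atp8, last 60 bases: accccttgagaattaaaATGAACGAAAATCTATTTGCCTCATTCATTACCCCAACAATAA
mt-Atp6, first 60 bases: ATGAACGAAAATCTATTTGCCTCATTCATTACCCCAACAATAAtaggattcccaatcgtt
Gm10925, first 60 bases: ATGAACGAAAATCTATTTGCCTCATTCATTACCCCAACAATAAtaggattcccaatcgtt

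The second set shows the place where a listed copy of a member differed from it, the other 4 having 0 differences. Gm29216 (492 bases) matches the last part of mt-Co1 (chrM:5328-6872) from position 1054 onward, counted from 1 at the start of mt-Co1, and the 6 differences T1056A, C1057T, A1059G, A1060G, C1062A and A1066T all lie near its start. Differing bases are in capitals in both lines, which cover chrM:6381-6440 and chr1:24616138-24616197 (minus strand).
mt-Co1 stretch: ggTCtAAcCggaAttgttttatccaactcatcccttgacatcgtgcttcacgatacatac
Gm29216, first 60 bases: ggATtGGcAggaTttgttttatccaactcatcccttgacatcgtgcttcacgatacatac

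The third set shows the end of mt-Co2 (chrM:7013-7696), whose last 3 bases, in capitals, are all that the annotated span of the copy leaves out. Whether chromosome 1 holds them beyond that span was not examined. The lines cover chrM:7637-7696 and chr1:24614885-24614941 (minus strand).
mt-Co2, last 60 bases: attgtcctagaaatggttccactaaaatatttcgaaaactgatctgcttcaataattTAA
Gm28661, last 57 bases: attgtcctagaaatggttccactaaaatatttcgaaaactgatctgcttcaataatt

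The remaining members lie at chrM:2751-3707 (mt-Nd1), chrM:3914-4951 (mt-Nd2), chrM:8607-9390 (mt-Co3), chrM:10167-11544 (mt-Nd4), chrM:11742-13565 (mt-Nd5) and chrM:14145-15288 (mt-Cytb), all protein-coding on the plus strand. The 10 members differed in how much of their sequence the nucleus also holds. Of the 31-base words of each messenger, 100% of those of mt-Co2, 99.9% of mt-Co3 and 99.5% of mt-Atp6 occurred in annotated nuclear genes. For mt-Co1 the share was 63.9% and for mt-Nd4 62.8%. For mt-Nd5 it was 16.8%, for mt-Nd2 13.5%, for mt-Atp8 7.47% and for mt-Cytb 6.55%, and mt-Nd1 shared 0% of its words. A short read from a shared word fits both places equally well, so the values of mt-Co2, mt-Co3 and mt-Atp6 are uncertain and are given below alone and together with their copies.

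Together the 10 transcripts held 20.5% to 25.7% of a library. Their summed TPM was 25.0%, 25.2% and 22.6% of the total in wild-type libraries 1, 2 and 3, 21.5%, 24.8% and 21.4% in the heterozygous libraries, and 20.9%, 20.5% and 25.7% in the homozygous libraries. The means were 24.2% ± 1.45 (SD, n = 3) in wild-type, 22.6% ± 1.96 (SD, n = 3) in heterozygous and 22.4% ± 2.90 (SD, n = 3) in homozygous hearts, and the groups overlapped. Homozygous library 3 lay above every other library, and the homozygous mean without it was 20.7%. The 5 other mitochondrial symbols added 1.51% to 2.58% of a library, and the 7 nuclear copies added 10.5% to 13.4%, so that mitochondrial symbols and their copies made up 32.9% to 41.3% of all TPM. In bulk tissue, fewer cells of a type and less RNA per cell cannot be told apart.

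**Figure D1:**
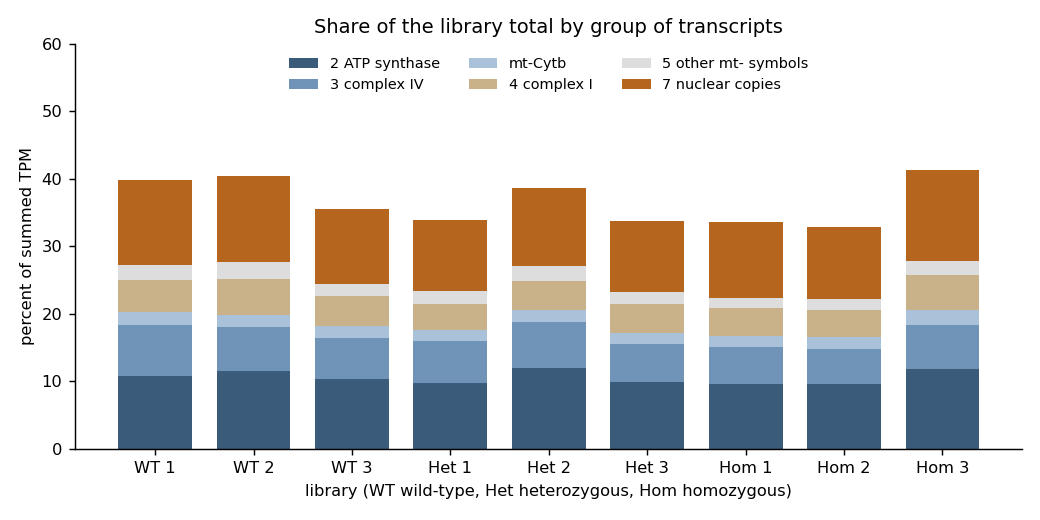
Percent of the summed TPM of each of the 9 libraries held by the members of each complex, by the 5 other mitochondrial symbols and by the 7 nuclear copies (stacked bars, 1 bar per library). The copies held 10.5% to 13.4% over the 9 libraries, and the full bars ran from 32.9% to 41.3%.

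Some libraries stood apart in markers of other tissues, and the counts of members below are also given without them. Cardiomyocyte markers (10 of 10 found, none at 0 throughout) summed to 35583 to 38612 TPM in wild-type, 37790 to 40241 in heterozygous and 27782 to 38579 in homozygous libraries, with the lowest sum in homozygous library 3. That library also had 836 TPM of fibroblast markers (7 of 7 found), against 1853 and 1883 TPM in the other homozygous libraries, and 245 TPM of endothelial markers (6 of 6 found), against 367 and 415 TPM. The 12 thymocyte markers summed to 582 TPM in homozygous library 3 and to at most 2.78 TPM elsewhere, the 12 airway and lung markers to 2622 TPM in wild-type library 1 and 1108 TPM in heterozygous library 1, and the 14 liver markers to 4099 TPM in heterozygous library 1. Erythroid markers (8 of 9 found) ranged from 2853 to 14604 TPM in wild-type, from 5114 to 15546 in heterozygous and from 4306 to 5148 in homozygous libraries. Xist was at 87.8 TPM or more in 5 libraries, among them all 3 heterozygous ones, and at 0.05 TPM or less in the other 4, and with Xist as a covariate limma again called 0 of the 10 members in each comparison. Ctcf itself was at 27.0 to 34.3 TPM in wild-type, 33.2 to 38.7 in heterozygous and 38.9 to 50.2 in homozygous libraries, which does not show the allele, a single amino acid change. The part of these differences in the results below was not tested beyond the values given.

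Complex I, the entry point for electrons from NADH, is represented by 4 members that form part of its proton-pumping membrane arm. mt-Nd1, whose product sits where the membrane arm meets the arm that binds NADH, was at 20823, 23310 and 15766 TPM (wild-type libraries 1 to 3), at 12670, 14718 and 15263 TPM (heterozygous) and at 14620, 14282 and 19242 TPM (homozygous). Wild-type libraries 1 and 2 were the highest of all 9, and every heterozygous library lay below every wild-type library, as for 1.03% of all genes tested. mt-Nd2, a membrane-arm pump subunit, was at 9173, 11023 and 8429 TPM (wild-type libraries 1 to 3), at 6735, 7737 and 7726 TPM (heterozygous) and at 7595, 7131 and 9508 TPM (homozygous). Its highest value was in wild-type library 2 and the next in homozygous library 3, again with no overlap between heterozygous and wild-type libraries. The ratio of mt-Nd1 to mt-Nd2 stayed between 1.87 and 2.27.

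mt-Nd4 and mt-Nd5, pump subunits towards the far end of the membrane arm, lie on the other side of the circle and did not follow mt-Nd1. mt-Nd4 was at 8768, 10302 and 10689 TPM (wild-type libraries 1 to 3), at 9810, 11233 and 10425 TPM (heterozygous) and at 10382, 10148 and 12976 TPM (homozygous). Its highest value was in homozygous library 3 and its lowest in wild-type library 1. mt-Nd5 varied least of the 10, at 8945, 9149 and 8907 TPM (wild-type libraries 1 to 3), at 9716, 8794 and 8532 TPM (heterozygous) and at 8572, 8382 and 9900 TPM (homozygous), a span of 1.18-fold over the 9 libraries. mt-Nd5 shares 14 bases with mt-Nd6, which is read from the opposite strand, and the use of strand in counting is not given in the sources used here. The ratio of mt-Nd6 to mt-Nd5 was 0.822 to 0.906 in 8 libraries and 1.02 in wild-type library 1.

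mt-Cytb encodes cytochrome b, the haem-binding core of complex III and the single mitochondrially encoded subunit of that complex. It was at 18602, 17804 and 18164 TPM (wild-type libraries 1 to 3), at 16423, 18557 and 17004 TPM (heterozygous) and at 17423, 16619 and 21861 TPM (homozygous). The wild-type libraries were close together and lay inside the homozygous range, whose top was homozygous library 3.

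Complex IV, cytochrome c oxidase, has its catalytic core encoded by mt-Co1, mt-Co2 and mt-Co3. mt-Co1, which carries the site that reduces oxygen, was at 52286, 47120 and 41176 TPM (wild-type libraries 1 to 3), at 43390, 47626 and 40019 TPM (heterozygous) and at 38507, 38004 and 47128 TPM (homozygous). It was the second most abundant symbol in all 9 libraries. mt-Co2, which accepts electrons from cytochrome c, was at 11643, 8250 and 9904 TPM (wild-type libraries 1 to 3), at 9347, 9958 and 9160 TPM (heterozygous) and at 7779, 7409 and 7874 TPM (homozygous). Every homozygous library lay below every library of the other genotypes for mt-Co2, where 2.38% of all genes tested lay lower without overlap against wild-type and 3.85% against heterozygous libraries. mt-Co3, a structural core subunit, was at 10934, 9893 and 8492 TPM (wild-type libraries 1 to 3), at 8401, 9588 and 7175 TPM (heterozygous) and at 7368, 7301 and 10395 TPM (homozygous). Its groups overlapped.

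ATP synthase has its proton channel subunit encoded by mt-Atp6 and a small stabilising membrane subunit encoded by mt-Atp8. mt-Atp8 was the most abundant symbol in all 9 libraries, at 103486, 110238 and 99629 TPM (wild-type libraries 1 to 3), at 93597, 115496 and 94831 TPM (heterozygous) and at 92736, 91826 and 112613 TPM (homozygous). The highest values were in heterozygous library 2 and homozygous library 3, so all genotypes overlapped. mt-Atp6 was the lowest of the 10 in every library, at 4770, 4309 and 4186 TPM (wild-type libraries 1 to 3), at 4402, 4262 and 3465 TPM (heterozygous) and at 3686, 3556 and 5277 TPM (homozygous). In homozygous library 3 each of the 10 transcripts was higher than in the other homozygous libraries.

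**Figure D2:**
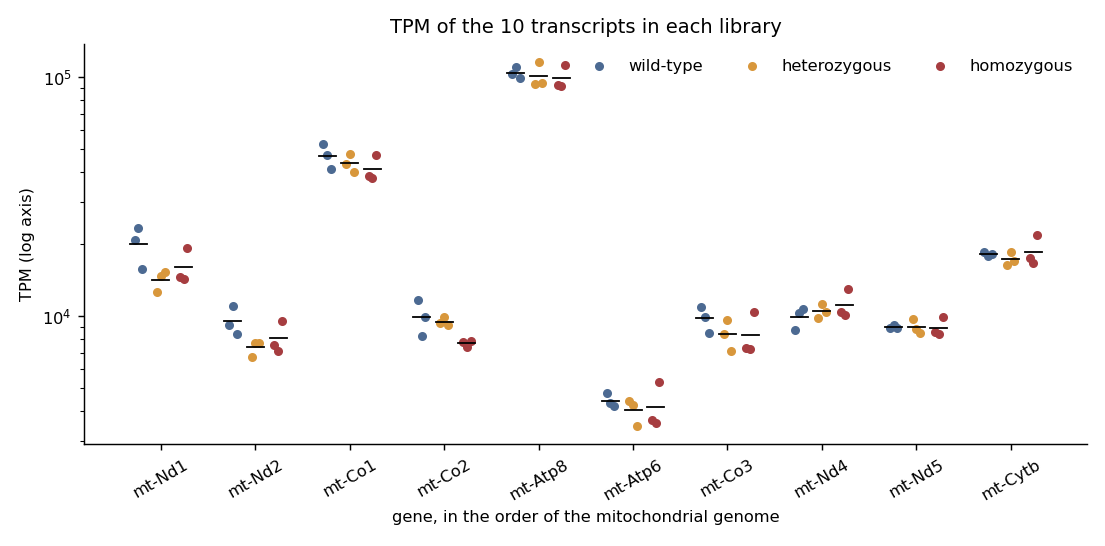
TPM (log axis) of the 10 transcripts in each library, by genotype (points, 3 libraries per genotype) with the group mean (bar), in the order of the genes on the mitochondrial genome. mt-Atp8 lay at 91826 TPM or more and mt-Atp6 at 5277 TPM or less, and the homozygous points lay below all others for mt-Co2.

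The 2 ATP synthase messengers are cut from the precursor as 1 RNA with overlapping reading frames, yet their TPM were far apart in every library. The ratio of mt-Atp8 to mt-Atp6 was 21.7, 25.6 and 23.8 in wild-type, 21.3, 27.1 and 27.4 in heterozygous and 25.2, 25.8 and 21.3 in homozygous libraries. Mean ratios were 23.7 ± 1.94 (SD, n = 3), 25.2 ± 3.45 (SD, n = 3) and 24.1 ± 2.42 (SD, n = 3). Exact two-sided permutation tests gave p = 0.9 for homozygous against wild-type, 0.6 for homozygous against heterozygous and 0.6 for heterozygous against wild-type hearts, with an adjusted p of 0.9 over the 3 comparisons. The smallest p that 3 against 3 libraries allow is 0.1. With Gm10925 added to mt-Atp6 the ratio was between 4.16 and 4.88, and the exact permutation p was then 0.8, 0.8 and 0.6.

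TPM is weighted by length, and mt-Atp8 is the shortest of the 10. It spans 204 bases, against 681 for mt-Atp6 and 1824 for mt-Nd5, and TPM divides the reads of a gene by its effective length, which for a frame this short depends on the fragment length of the library. mt-Atp8 made up 41.5% to 46.6% of the TPM of the 10 transcripts, but 10.5% to 12.5% when each TPM was multiplied by the annotated length. On that length-weighted scale mt-Co1 led with 36.0% to 40.2%, and mt-Cytb held 10.4% to 12.4%. The fragment length of the libraries is not given in the sources used here, and its part in the level of mt-Atp8 was not tested.

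The nuclear copies of mt-Co2, mt-Co3 and mt-Atp6 were listed at higher TPM than these genes themselves, and the origin of the reads was not tested. Gm28661 was at 49101, 46390 and 35761 TPM (wild-type libraries 1 to 3), at 38312, 42519 and 34093 TPM (heterozygous) and at 35300, 34009 and 45616 TPM (homozygous), the third most abundant symbol in all 9 libraries. It held 78.3% to 85.3% of the summed value of mt-Co2 and Gm28661. Gm28437 was at 16654 to 21527 TPM and held 65.8% to 70.3% of its pair with mt-Co3. Gm10925 was at 15506 to 20678 TPM and held 79.7% to 82.7% of its pair with mt-Atp6. Where the copy covers part of the gene, it held less: Gm29216, at 399 to 3942 TPM, held 0.864% to 7.01% of its pair with mt-Co1, and Gm28439, at 39.2 to 75.7 TPM, held 0.445% to 0.724% of its pair with mt-Nd4. Gm10222 was at 17538 to 28780 TPM beside 3428 to 6560 TPM for mt-Nd4l, and Gm28438 at 8879 to 17012 TPM beside 3071 to 6131 TPM for mt-Nd3.

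**Figure D3:**
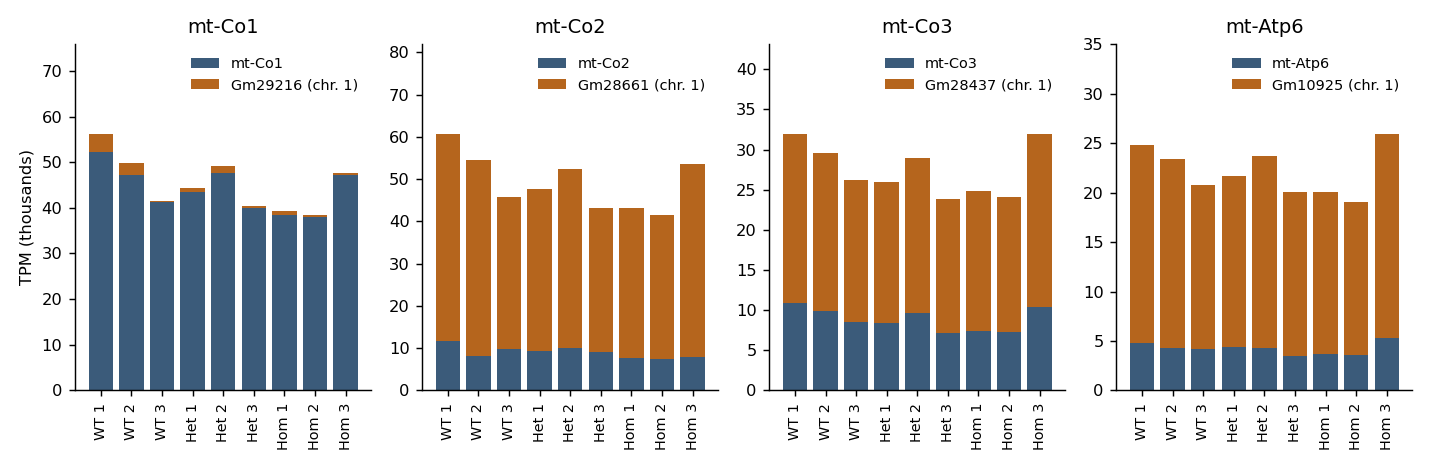
Stacked TPM of mt-Co1, mt-Co2, mt-Co3 and mt-Atp6 (blue) with the TPM of the matching chromosome 1 copy on top (brown), 1 bar per library (WT wild-type, Het heterozygous, Hom homozygous). The copy held 78.3% to 85.3% of the mt-Co2 bar and 0.864% to 7.01% of the mt-Co1 bar.

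Adding each copy to its mitochondrial gene altered the order of the members and narrowed the span of 2 ratios. mt-Co2 with Gm28661 was at 60744, 54639 and 45665 TPM (wild-type libraries 1 to 3), at 47658, 52477 and 43252 TPM (heterozygous) and at 43079, 41417 and 53490 TPM (homozygous). The homozygous libraries no longer lay below the others, as homozygous library 3 came within the wild-type range. mt-Co2 thereby moved from between rank 5 and 9 to rank 2 of the 10 in every library, and mt-Atp6 from rank 10 to rank 5. The ratio of mt-Co2 to mt-Co1, which was 0.167 to 0.241 as deposited, a span of 1.44-fold, was 1.07 to 1.13 with both copies added, a span of 1.05-fold. The ratio of mt-Co3 to mt-Atp6 was 1.91 to 2.30 as deposited and 1.19 to 1.29 with both copies added. In both ratios with copies added, every heterozygous library lay below every wild-type and every homozygous library. For mt-Co2 to mt-Co1 the highest heterozygous value was 1.074 and the lowest homozygous value 1.077. For mt-Co3 to mt-Atp6 they were 1.224 and 1.230. Merging was chosen after seeing the data, these orders were not tested, and no share over other ratios was taken.

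With the copies added, the summed share of the 10 was 32.7% ± 2.64 (SD, n = 3) in wild-type, 30.1% ± 2.67 (SD, n = 3) in heterozygous and 29.9% ± 4.06 (SD, n = 3) in homozygous hearts. The range was 29.6% to 34.4% in wild-type, 28.2% to 33.1% in heterozygous and 27.2% to 34.6% in homozygous libraries, and the groups again overlapped.

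Between homozygous and wild-type hearts, 8 of the 10 transcripts had a log2 change below 0 and 0 of 10 passed the test. In this comparison limma called 46 of the 13682 genes tested, whose mean was 1 TPM or higher (0.336%), at an adjusted p under 0.05. An unadjusted p under 0.05 was reached by 1 of the 10 members, beside 3426 of the 13682 genes. Changes are on the log2(TPM + 1) scale, homozygous minus wild type, with Benjamini-Hochberg adjustment over all genes tested. mt-Co2 differed most, at -0.36 (SE 0.11, limma adjusted p = 0.12), and 1 of 10 members, mt-Co2, was lower without overlap, beside 2.38% of all genes tested. As a share of the summed TPM of the 10, mt-Co2 overlapped, at 3.28% to 4.67% in wild-type and 3.07% to 3.73% in homozygous libraries. On that scale mt-Nd4 and mt-Cytb were higher in homozygous libraries without overlap, and the remaining members overlapped. With copies added, mt-Nd4 alone stayed without overlap. In TPM, 22.3% of all genes tested and 0 of 10 members were higher without overlap. No such share over all genes was taken on the scale of the 10. Leaving out 1 library at a time moved mt-Co2 between -0.48 (without wild-type library 2) and -0.23 (without wild-type library 1). With Gm28661 added, mt-Co2 was at -0.22 (SE 0.13, limma adjusted p = 0.28).

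The other 9 changes did not pass the test. mt-Nd1 was at -0.31 (SE 0.16) and mt-Nd2 at -0.24 (SE 0.13). mt-Co3 was at -0.24 (SE 0.16), mt-Co1 at -0.19 (SE 0.12), mt-Atp6 at -0.10 (SE 0.15) and mt-Atp8 at -0.08 (SE 0.11), and with their copies added mt-Co3 was at -0.13, mt-Co1 at -0.23 and mt-Atp6 at -0.09. mt-Nd5 was at -0.01 (SE 0.09), mt-Cytb at 0.02 (SE 0.10) and mt-Nd4 at 0.17 (SE 0.11). The direction of mt-Nd4 turned to -0.09 after median-ratio scaling and to -0.03 with 2 libraries per group, that of mt-Cytb turned to -0.23 and -0.08 in the same settings, and those of mt-Nd5 and mt-Atp6 turned to 0.16 and 0.15 after quantile normalization.

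The median change of the 10 was -0.15, while the median over all genes tested was 0.23 and 81.7% of genes lay above 0. The median of the members minus that of all genes was -0.38. Median-ratio scaling put the median gene at 0.01, and the same difference was then -0.40, with 10 of 10 members below 0 and 0 called. After quantile normalization the median of the 10 was 0 and the difference -0.0087, with 4 of 10 members below 0 and 0 called, so the gap depended on the normalization. Without homozygous library 3 the median was -0.29 with 9 of 10 below 0, and 6 of 10 had an unadjusted p under 0.05, beside 4547 of the 13682 genes. Of the 10 members, 0 passed the adjusted threshold then (lowest limma adjusted p = 0.10), although 247 of all genes did. With wild-type library 1 and heterozygous library 1 left out as well, 10 of 10 lay below 0 with a median of -0.22 and 0 were called, and mt-Co2 was at -0.25. Library weights (arrayWeights) called 6 of 10 members lower and 0 higher, beside 589 of the 13682 genes called lower and 8166 called higher. That fit called 64.0% of all genes, and its weights stopped short of convergence.

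Between homozygous and heterozygous hearts, 5 of the 10 transcripts lay below 0 and 0 of 10 were called, beside 6 of all genes (0.0439%). An unadjusted p under 0.05 was reached by 1 member, beside 978 of the 13682 genes. mt-Co2 was at -0.30 (SE 0.11, limma adjusted p = 0.66), and 1 of 10 members, again mt-Co2, was lower without overlap, beside 3.85% of genes. With Gm28661 added, mt-Co2 was at -0.06 (SE 0.13, limma adjusted p = 0.94) and the groups overlapped, and with Xist as a covariate the deposited value was at -0.17. The other 9 lay between -0.09 and 0.17, and the median of the 10 was 0.01 against 0.08 for all genes. Without homozygous library 3, 9 of the 10 lay below 0 with a median of -0.11, without homozygous library 1 or 2 it was 2 of the 10 with medians of 0.09 and 0.10, and with homozygous library 3, wild-type library 1 and heterozygous library 1 all left out it was 10 of 10 with a median of -0.08. This comparison and the one with wild-type hearts share the homozygous libraries.

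Between heterozygous and wild-type hearts, 8 of the 10 transcripts lay below 0 and 0 of 10 were called, beside 2 of all genes (0.0146%). Beside 940 of the 13682 genes, 2 members had an unadjusted p under 0.05. These were mt-Nd1 at -0.48 (SE 0.16, limma adjusted p = 0.67) and mt-Nd2 at -0.36 (SE 0.13, limma adjusted p = 0.67). The same pair made up the 2 of 10 members that were lower without overlap, beside 1.03% of all genes. The other 8 lay between -0.22 and 0.08, and the median of the 10 was -0.08 against 0.15 for all genes. The wild-type libraries are those of the first comparison. Without wild-type library 1, heterozygous library 1 and homozygous library 3, the libraries with the highest sums of lung, liver and thymocyte markers, 0 of 10 members had an unadjusted p under 0.05, beside 538 of the 13682 genes. mt-Nd1 was then at -0.36 and mt-Nd2 at -0.32, and 8 of 10 lay below 0 with a median of -0.04. Without wild-type library 2, mt-Nd1 was at -0.35 and mt-Nd2 at -0.25.

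**Figure D4:**
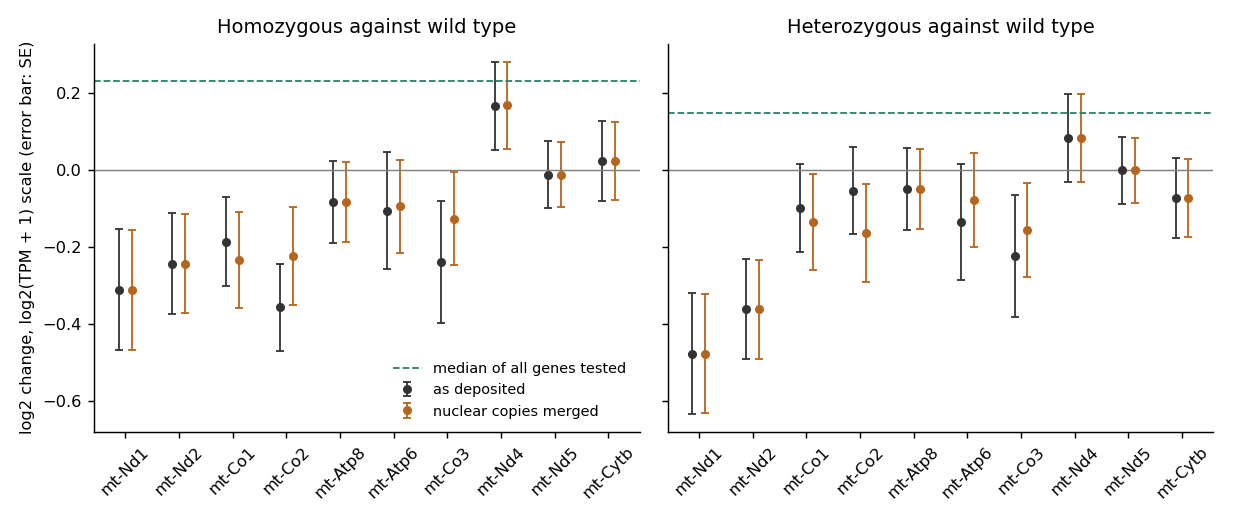
Log2 change of the 10 transcripts on the log2(TPM + 1) scale with its standard error, homozygous (left) and heterozygous (right) against wild-type hearts, as deposited (black) and with nuclear copies added (brown), in genome order. The dashed line is the median of all genes tested, 0.23 on the left and 0.15 on the right, and 0 of the 10 transcripts was called in either.

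Transcripts from the start of the main precursor, around mt-Rnr2 and mt-Nd1, were higher in wild-type libraries 1 and 2 than in the other 7. mt-Rnr2, the large ribosomal RNA that lies just before mt-Nd1, was at 3939 and 5504 TPM in these libraries and at 644 to 1022 TPM in the other 7, wild-type library 3 included (726 TPM). The ratio of mt-Rnr2 to the small ribosomal RNA mt-Rnr1 was 2.66 and 4.02 there and 0.841 to 1.08 elsewhere. The ratio of mt-Nd1 to mt-Nd4 was 2.37 and 2.26 in the same libraries and 1.29 to 1.48 in the other 7. Gm29216, the copy of the end of mt-Co1, was also highest there, at 3942 and 2803 TPM, against 399 to 1491 TPM in the other 7. mt-Rnr2 was at -1.78 (SE 0.58, limma adjusted p = 0.13) in homozygous and at -1.58 (SE 0.58, limma adjusted p = 0.67) in heterozygous against wild-type hearts. The protocol aimed to remove ribosomal RNA by capture of polyadenylated RNA, and the part of leftover ribosomal RNA in these differences was not tested.

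**Figure D5:**
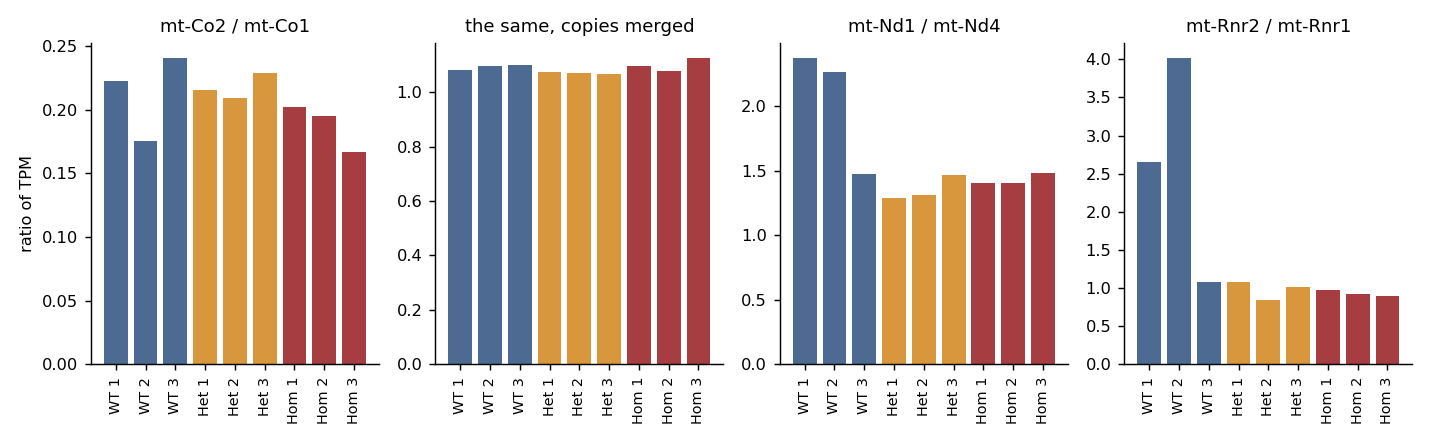
Ratios of TPM in each library (bars, coloured by genotype: wild-type blue, heterozygous orange, homozygous red), from left to right mt-Co2 to mt-Co1 as deposited, the same with nuclear copies added, mt-Nd1 to mt-Nd4, and mt-Rnr2 to mt-Rnr1. Adding the copies narrows the span of the first ratio, to 1.07 to 1.13. Every heterozygous library is then below the others, at 1.074 at most against 1.077 or more, which was not tested. Wild-type libraries 1 and 2 stand above the rest in the last 2 panels.

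The 5 other mitochondrial symbols gave 0 calls by limma in any comparison. mt-Nd3, mt-Nd4l and mt-Nd6, all complex I subunits, were at -0.21 (SE 0.22), -0.18 (SE 0.19) and -0.06 (SE 0.12) in homozygous against wild-type hearts. mt-Rnr1 was at -0.50 (SE 0.28, limma adjusted p = 0.27), and mt-Rnr2 alone of the 5 had an unadjusted p under 0.05 there. Of the nuclear copies, Gm28661 was at -0.19 (SE 0.15), Gm28437 at -0.07 (SE 0.11), Gm10925 at -0.09 (SE 0.12), Gm28439 at 0.33 (SE 0.19) and Gm29216 at -1.60 (SE 0.73), and 0 of these 5 were called by limma, also 0 at an unadjusted p under 0.05. Gm10222 was at 0.33 (SE 0.13, limma adjusted p = 0.16) in the same comparison, and Gm28438 was at -0.46 (SE 0.13, limma adjusted p = 0.67) in heterozygous against wild-type hearts.

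The nuclear genes listed for other subunits of the same complexes gave 0 calls by limma in any comparison, with 74 of 75 listed genes tested. At an unadjusted p under 0.05 stood 12 genes between homozygous and wild-type hearts, 9 between homozygous and heterozygous hearts and 0 between heterozygous and wild-type hearts. Over all 13682 genes tested the counts were 3426, 978 and 940. Of these 74 genes, 66 had a log2 change below 0 in homozygous against wild-type hearts, with a median of -0.10 against 0.23 for all genes. The nuclear lists were not run under other normalizations or with libraries left out. For the 10 members, the gap to all genes in this comparison was -0.38 as fitted and -0.0087 after quantile normalization. By complex, 32 of 36 lay below 0 for complex I, 9 of 9 for complex III, 13 of 14 for complex IV and 12 of 15 for ATP synthase, with medians of -0.10, -0.10, -0.13 and -0.08. Beside these, 5 of 10 cardiomyocyte markers lay below 0, with a median of -0.01. Complex II, which has no mitochondrially encoded subunit, had 2 of 4 below 0 and a median of -0.01. In homozygous against heterozygous hearts 65 of the 74 lay below 0, with a median of -0.11 against 0.08 for all genes. There 8 of 10 cardiomyocyte markers (median -0.20) and 4 of 4 complex II genes (median -0.09) also lay below 0. In heterozygous against wild-type hearts 30 of the 74 lay below 0, with a median of 0.01 against 0.15 for all genes. Cardiomyocyte markers had 2 of 10 below 0 there (median 0.13), and complex II had 1 of 4 (median 0.03).

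Within each complex the extremes in homozygous against wild-type hearts were small. For complex I the lowest was Ndufs6, an accessory subunit near the electron-input arm, at -0.31. For complex III they were Uqcrh, the hinge protein that helps cytochrome c dock, at -0.31 (SE 0.07, limma adjusted p = 0.097) and Uqcrc2, a core protein, at -0.01. For complex IV they were the supernumerary subunits Cox7a2 at -0.30 and Cox7a1, its heart and muscle form, at 0.13. For ATP synthase they were Atp5k, a small membrane subunit, at -0.32 and Atp5b, the catalytic beta subunit, at 0.12, and for complex II they were Sdhb at -0.23 and Sdha at 0.06.

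The last lists hold genes that transcribe and process the mitochondrial messengers. Of 15 genes for mitochondrial transcription and DNA maintenance 1 lay below 0, with a median of 0.29, and of 18 for mitochondrial RNA processing and stability 2 lay below 0, with a median of 0.19, against 0.23 for all genes. None was called by limma. Between homozygous and wild-type hearts 4 and 2 genes had an unadjusted p under 0.05, beside 3426 of the 13682 genes tested. The extremes were Tfb1m, which modifies the small ribosomal RNA, at -0.14 and Polg, the mitochondrial DNA polymerase, at 0.50, and in the second list Lrpprc, which stabilises mitochondrial messengers, at -0.04 and Fastkd5, an RNA-binding processing factor, at 0.45. Lrpprc was at 57.3 TPM ± 11.9 (SD, n = 3) in wild-type, 65.1 ± 5.16 (SD, n = 3) in heterozygous and 55.2 ± 7.20 (SD, n = 3) in homozygous hearts.

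Across the 9 libraries, the 3 genes whose profile was most like the summed members by Pearson's r were nuclear copies. Among 9937 genes that are not mitochondrially encoded, with a mean of at least 5 TPM, the highest Pearson correlations of log2 levels were those of Gm10925 (r = 0.96, Spearman rho = 0.93), Gm28437 (r = 0.94, rho = 0.93) and Gm28661 (r = 0.92, rho = 0.90). Rpl41, a small ribosomal protein gene, followed at r = 0.91 (rho = 0.95) and Dleu2, a long noncoding RNA, at r = 0.90 (rho = 0.73). These are descriptions over 9 points that share a fixed library total, and the libraries fall into 3 genotypes.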

How the data were processed

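RNA of E18.5 embryo hearts was captured by its poly-A tails and sequenced, and the sample titles gave 3 libraries to each genotype. Per the labels and the study's methods, the authors trimmed reads with Trim Galore, aligned them to mm10 with STAR and quantified genes with RSEM. How reads that fit several genes were shared out and whether strand was used are not given in the sources used here, nor is the annotation release. The deposited values are TPM per gene symbol, and their sums ran from 999100 to 999245. Depth cannot be read from TPM, so no counting error is given, and the spread between the 3 libraries is the measure of precision. Of 24597 symbols, 26 stood as dates and were not used.

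log2(TPM + 1) of 13682 genes whose mean reached 1 TPM was fitted with limma (v3.58.1, lmFit and eBayes with trend, R v4.3.3), with the 3 genotypes, all 9 libraries and no covariates. Tests were two-sided with Benjamini-Hochberg adjustment over all genes, and an adjusted p under 0.05 was called. The procedure was tested on simulated data. Ratios were compared by exact permutation (scipy v1.17.1). Nuclear copies were genes of which at least 50% of the 31-base words occur in 1 mitochondrial transcript of GENCODE M21 and whose mean was at least 1 TPM. Merged values add the copy's TPM to that of its mitochondrial gene.

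All 10 members and the other mt- symbols were named whatever their values. The copies were named where they met the limits given above, and Gm28438 and Gm10222 were added after their values had been seen. The rule also named the lowest and highest gene of each nuclear list and the 5 genes most like the summed members. A gene that this rule names is not reported here. The members and lists were chosen with earlier results of these data known. Alternatives covered pseudocounts, filters, scalings, eBayes settings, library weights, Xist as a covariate, a replicate block and left-out libraries. Those that merge copies, or that rescale without them, were chosen after seeing the data.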

Additional observations from a re-analysis of the deposited data

How the results depend on the processing

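The count of called members was 0 in each comparison under all planned settings but arrayWeights, which called 6 members in homozygous against wild-type hearts (in a fit that called 64.0% of all genes) and 3 in heterozygous against wild-type hearts (32.3%). All the members called were lower. Over all genes that setting called 589 lower and 8166 higher in the first of these comparisons, and 246 lower and 4179 higher in the second. The replicate block, which takes the replicate number as shared, also gave 0 called members, and calls over all genes in homozygous against wild-type hearts went from 46 to 17. Same-numbered libraries deviated together at r = -0.03 to 0.36, and 10 of 18 best matches had the same number. The highest values were 0.36 for number 1 and 0.30 for number 3, both between wild-type and heterozygous libraries. These values do not settle whether the numbers mark pairs, and the fit reported above did not take them as pairs. Calls over all genes in that comparison were between 11 and 92 under the other settings but arrayWeights, against 238 after median-ratio scaling, 2170 without wild-type library 3 and 247 without homozygous library 3.

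Of the log2 changes in homozygous against wild-type hearts, some turned. For mt-Nd4 the value was -0.086 after median-ratio scaling and -0.032 with 2 libraries per group. For mt-Cytb it was -0.23 and -0.080 in those settings, -0.020 after rescaling without mitochondrial genes, -0.036 with the copies left out of the total too, -0.036 with copies merged as well, and -0.034 with arrayWeights. After quantile normalization mt-Nd5 was at 0.16 and mt-Atp6 at 0.15. Leaving out 1 library gave -0.086 to 0.034 for mt-Nd5 and -0.096 to 0.10 for mt-Cytb. The cause was not tested. The difference in the ratio of mt-Atp8 to mt-Atp6 ranged from -0.58 to 1.80 for homozygous against wild-type hearts and from -3.13 to 0.25 for homozygous against heterozygous hearts when 1 library was left out. With copies merged, the summed share was 32.7%, 30.1% and 29.9% in wild-type, heterozygous and homozygous hearts. The number of reads behind a TPM is unknown, so a small change cannot be told from counting error in a single library.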
